A study of Mus musculus with 2 samples.

Results

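The class III segment of the mouse major histocompatibility complex (MHC) lies on chromosome 17 between the class II and the class I genes. It is densely packed with genes of unlike function, among them the complement genes C2, Cfb and C4b, the lymphotoxin and TNF cytokine genes, and housekeeping genes for transcription, RNA decay, protein quality control and lipid metabolism. Its complement and cytokine genes are known to respond to infection in macrophages, whereas most of its other genes are active in many cell types. A list of 36 protein-coding genes of the segment was matched by exact gene symbol to a deposited table of 16463 mouse genes, and all 36 were found. In the GRCm38.p6 assembly of RefSeq, which is the assembly behind mm10, they run from the start of Notch4 to the end of Ddx39b (chr17:34564286-35253707), a stretch of 689 kb.

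The cells were bone marrow-derived macrophages of C57BL/6J mice, grown for 5 days in DMEM with 10% serum and 10% L929 supernatant, which supplies macrophage colony-stimulating factor, and harvested unstimulated. The TKO library came from mice with mir-106a~363-/- and mir-106b~25-/- alleles together with mir-17~92flox/flox and Lyz2-Cre. The WT library came from mice with Lyz2-Cre, so both genotypes carried the recombinase. Cre is expressed from the Lyz2 (lysozyme M) locus in myeloid cells, so that the floxed cluster is removed only in those cells, whereas the other clusters were absent from all cells. How many mice stood behind each library, and their sex and age, is not stated in the labels. Polyadenylated RNA was sequenced in 1 library per genotype. No difference between the genotypes therefore has a replicate check, and no test was run. Any other difference between the mice behind the 2 libraries, the MHC sequence they carry included, cannot be told apart from the genotype. In bulk RNA, fewer cells of a type and less RNA per cell cannot be told apart either.

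The TKO library held 10656465 expected counts and the WT library 10877917. The host transcript of the floxed cluster, Mir17hg, had 42 counts in the TKO library and 8 in the WT library. The mature microRNAs were not measured, and the exons that these counts come from may lie outside the floxed stretch, so this value does not check the deletion. All 9 macrophage markers listed (Adgre1, Csf1r, Cd68, Mertk, Mpeg1, Fcgr1, Cd14, Lyz2 and Aif1) were well detected, with summed values of 3832 FPKM in the TKO library and 3565 FPKM in the WT library, and none changed by the size rule given next. FPKM scales the fragments of a gene by its length and by the depth of the library, so that levels of different genes can be compared.

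For each gene the log2 ratio of scaled counts was taken as TKO over WT, with a 95% interval that covers counting error alone. Genes were called by size, which required a ratio of 2-fold or more, a counting interval clear of 0 and 20 or more counts in either library. Over the whole table, 11525 genes had 20 counts, 280 of them were higher in TKO macrophages (2.43% of those with enough counts), 265 were lower (2.30%), and 545 changed in either direction (4.73%).

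Of the 36 class III genes, 28 had at least 20 counts in 1 library. By the size rule 1 of these 28 was higher in TKO macrophages (Msh5) and 0 were lower, against the 2.43% and 2.30% of all genes. Of the 28, 25 (89.3%) had a log2 ratio within 0.5 of 0, compared with 83.7% of all genes with enough counts. The median log2 ratio of the 28 was 0.12, with a binomial interval over the genes of -0.02 to 0.23, and the median of all genes was 0.00. That interval describes spread among neighbouring genes of the same 2 libraries, which are not replicates. It does not measure the uncertainty of a genotype difference. Without Msh5 the ratios of the other 27 ran from -0.55 for Notch4 to 0.56 for Nfkbil1. Smaller shifts were common: 10 of the 28 had an interval above 0, as did 21.8% of all genes, and 3 had an interval below 0, as did 22.7% of all genes. These 13 genes are 46.4% of the 28, close to the 44.6% of all genes whose interval was clear of 0.

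The segment held genes at very different levels in these macrophages. Above 100 FPKM in both libraries were Clic1, Gpsm3 and Csnk2b. At 10 FPKM or more in both libraries were 23 of the 36, and 5800 genes of the whole table reached this level. Under 1 FPKM in both libraries were 7 genes: Lta, Ager, C2, C4b, Apom, Tnxb and Cfb. These include all 3 complement genes and the lipocalin gene Apom, whose product carries sphingosine 1-phosphate on lipoproteins.

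**Figure D1:**
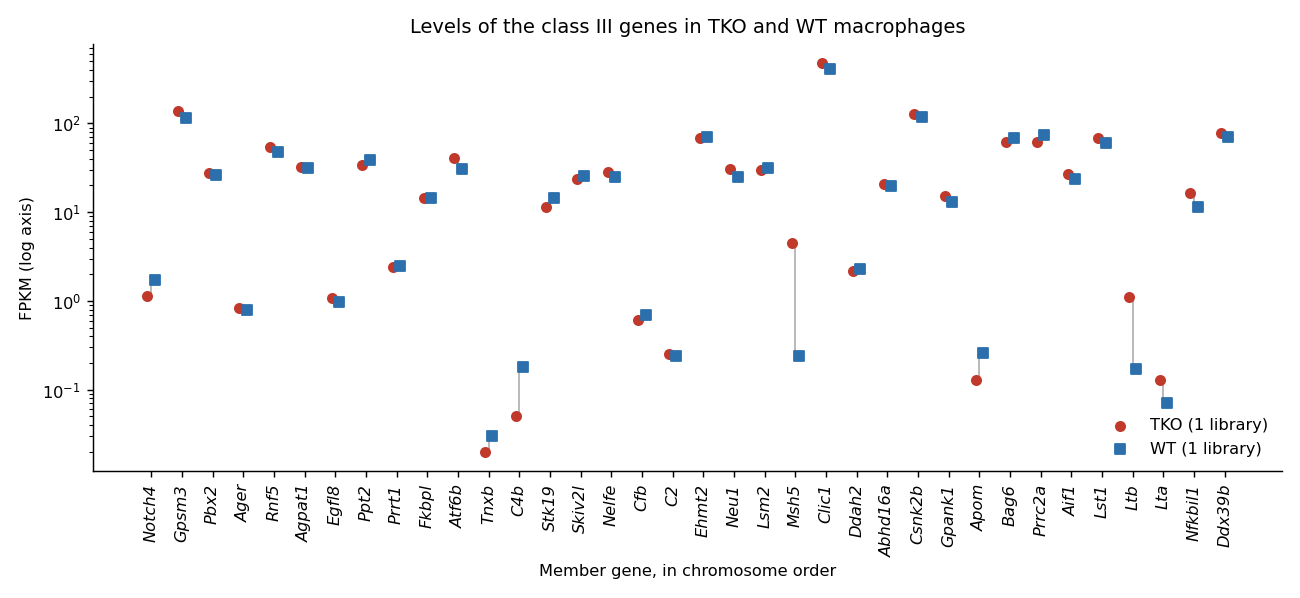
Level of each of the 36 class III genes in the TKO library (red circles) and the WT library (blue squares), as FPKM on a log axis, with the genes in chromosome order and a grey line joining the values of a gene. For most genes both symbols nearly coincide; Msh5, at 4.55 FPKM in TKO and 0.24 FPKM in WT macrophages, is set apart, and Ltb shows a gap between 1.10 FPKM in TKO and 0.17 FPKM in WT macrophages.

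Msh5 was the only class III gene past the size rule. It encodes a MutS homologue that pairs with MSH4 and stabilises recombination intermediates in meiosis, and it is known mainly from germ cells. The TKO library held 135 counts of Msh5 (4.55 FPKM) and the WT library held 7 counts (0.24 FPKM). Among the 16463 genes ranked by FPKM, Msh5 stood at rank 8388 in the TKO library and at rank 12770 in the WT library. It was thus a low to moderate transcript in TKO macrophages and close to the detection limit in WT macrophages. The log2 ratio was 4.34 (95% interval 3.25 to 5.68), a 20.2-fold difference with a counting interval of 9.53-fold to 51.2-fold. In the authors' deposited table the log2 ratio of Msh5, taken from the FPKM values of the same 2 libraries, was 4.24. Msh5 was called under every scaling, count minimum and fold threshold tried.

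The gene lies on the minus strand at chr17:35028605-35046997. None of its GENCODE exons overlaps an exon of another gene, although the RefSeq span of the predicted RNA Gm52318 touches its 3' end. Of the genes beside it, Clic1 was not called, and Sapcd1 and Vwa7 had too few counts for a call. On its 3' side Sapcd1 had 3 counts in each library, and Vwa7 had 12.8 counts in the TKO library and 14 in the WT library. On its 5' side lies Clic1, with a log2 ratio of 0.23. Sapcd1 and Vwa7 were named here after their values were seen.

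As a description of sequence, the 250 bases upstream of a RefSeq start of Msh5 are printed 5′ to 3′ (GRCm38.p6, chr17:35046623-35046872, minus strand). Counts per gene do not place the Msh5 difference at this or any other stretch. The printed stretch lies inside the Msh5 span given above, which ends at 35046997, so the start used is not the outermost 5′ end. Printed beside the Msh5 stretch are the 250 bases upstream of the neighbour Clic1 (chr17:35049993-35050242, plus strand), the most abundant gene of the list. Capitals mark matches on either strand to the CCAAT box (CCAAT) and the GC box (GGGCGG).
Msh5: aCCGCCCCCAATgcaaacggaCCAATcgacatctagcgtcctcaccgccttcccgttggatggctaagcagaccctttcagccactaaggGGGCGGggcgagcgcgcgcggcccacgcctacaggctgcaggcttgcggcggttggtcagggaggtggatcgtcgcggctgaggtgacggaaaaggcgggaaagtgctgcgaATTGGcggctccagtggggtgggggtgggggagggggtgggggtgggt
Clic1: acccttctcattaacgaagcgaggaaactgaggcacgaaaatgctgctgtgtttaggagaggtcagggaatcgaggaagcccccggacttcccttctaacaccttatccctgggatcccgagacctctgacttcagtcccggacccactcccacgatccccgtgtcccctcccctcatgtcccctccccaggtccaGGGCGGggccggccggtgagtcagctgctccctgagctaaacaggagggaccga
The Msh5 stretch holds CCAAT matches beginning 243, 229 and 48 bases upstream of the start and GC box matches beginning 249 and 160 bases upstream, and the GC box at 249 directly adjoins the CCAAT match at 243. Clic1 has a single GC box match, 54 bases upstream. Of the 32851 RefSeq promoters of this length in the mouse, 33.8% hold a CCAAT match and 32.7% a GC box match. Msh5 is rich in CpG dinucleotides, with 22 in 250 bases and a GC content of 67.2%, against 13 CpG and 60.8% for Clic1. Of the 28 class III genes with a RefSeq promoter, Msh5 included, 8 hold a CCAAT match and 16 a GC box match. Across the 38 promoters of those 28 genes the median was 13 CpG and 58.4% GC, and across all promoters 6 CpG and 52.4% GC. A match is a description of the letters and no evidence of a bound site.

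Of 7 genes of the MutS and MutL families of mismatch repair proteins that were analysed, all had enough counts; 1 was higher (Msh5) and 0 were lower. The log2 ratios of the other 6 were below 0 and within 0.5 of it, except that Msh3 was at 0.03 with the length trend removed. Msh6, the most abundant of the family, had 9.28 FPKM in TKO and 10.5 FPKM in WT macrophages. Mlh3, which works with MSH4 and MSH5 in meiosis, had a log2 ratio of -0.20 and was named after its value was seen. Msh4 was also listed, but it was absent from the deposited genes.

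**Figure D2:**
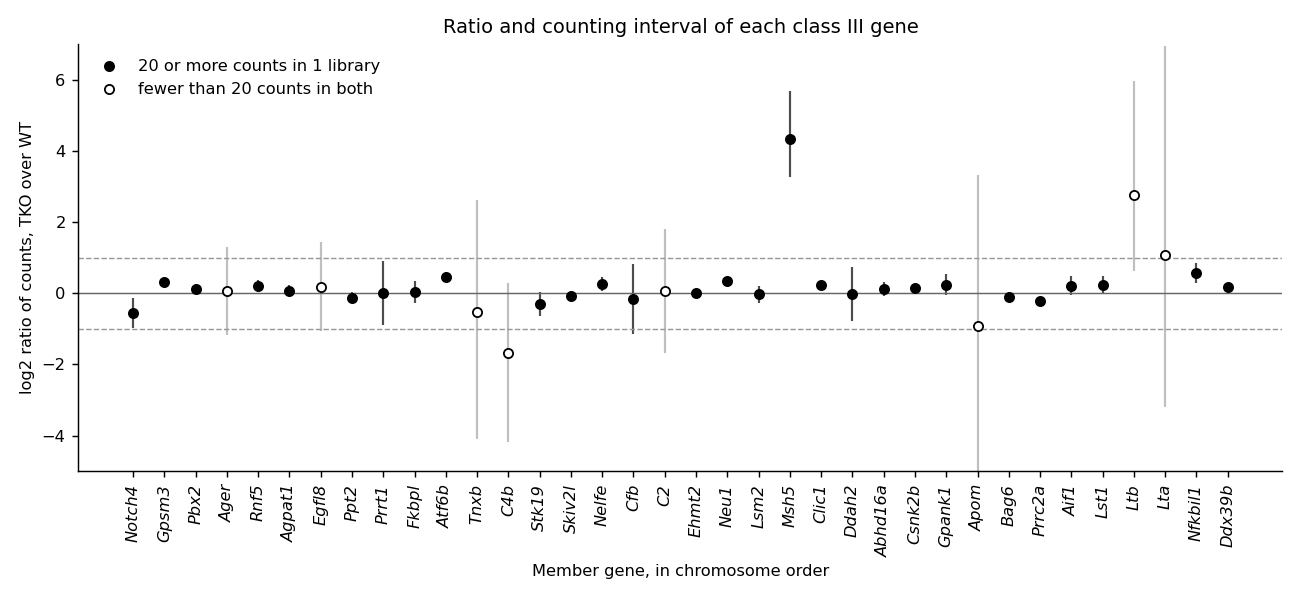
Log2 ratio of TKO over WT scaled counts for each class III gene in chromosome order, with vertical lines for the 95% interval of counting error; dashed lines mark 2-fold, filled symbols are genes with 20 or more counts in 1 library and open symbols the 8 others. Msh5 at 4.34 is the only filled symbol beyond 2-fold, and the longest intervals belong to Ltb, Lta, C4b, Apom and Tnxb, each with 13 counts or fewer (the interval of Apom runs off the axis).

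Along the chromosome Msh5 was the only call within the segment. The table held 19 other genes between Notch4 and Ddx39b. Of these, 11 had enough counts and 0 passed the size rule. Their log2 ratios ran from -0.65 to 0.90 around a median of -0.06. The lowest was the heat shock gene Hspa1b, with 84.3 counts in TKO and 138 in WT macrophages, and the highest was Tnf. Hspa1b and its neighbour Hspa1a are near-identical copies, so the division of their reads is uncertain.

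Both flanks of the segment held several calls. Within 1 Mb on the class II side, 43 of 49 genes had enough counts, with a median log2 ratio of 0.23; 5 were higher (H2-K2, H2-DMa, H2-DMb2, Tap1 and H2-Ea-ps) and 1 was lower (Col11a2). Within 1 Mb on the class I side, 36 of 43 genes had enough counts, with a median of 0.38; 13 were higher and 1, Ddr1, was lower. Over all genes 2.43% were higher and 2.30% lower. The nearest tested gene on the class II side was H2-Ea-ps, with 118 counts in the TKO library and 0 in the WT library. With the 0 set to the floor of 3 counts it was 41.2-fold higher in TKO macrophages, and its counting interval began at 33.0-fold. On the class I side the nearest was H2-D1, a classical class I gene, with 23984 counts in TKO and 21822 in WT macrophages (log2 ratio 0.20, interval 0.18 to 0.23). The next gene outward, H2-Q1, had 134 counts in TKO and 2.94 in WT macrophages. Class I genes are close copies of each other, and how their reads were divided can shift counts among them. On the whole of chromosome 17, 31 of 618 genes with enough counts were higher in TKO macrophages and 13 were lower, against 2.43% and 2.30% of all genes. These counts include Msh5 and the calls on both flanks.

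**Figure D3:**
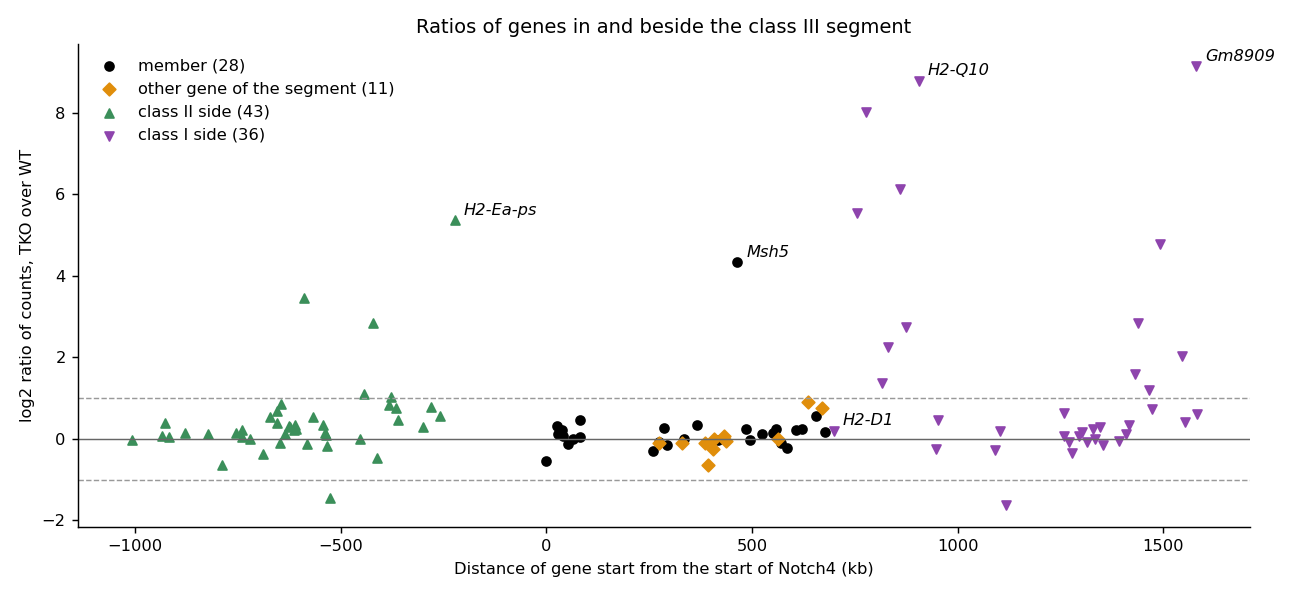
Log2 ratio of TKO over WT against distance in kb from the start of Notch4 for genes with at least 20 counts in 1 library, with class III members (black circles), other genes of the segment (orange diamonds) and flanking genes within 1 Mb (triangles) marked apart; dashed lines mark 2-fold. Inside the segment only Msh5 lies beyond the lines, whereas 5 genes on the class II side and 13 on the class I side were called higher. H2-Ea-ps and H2-Q6, at 0 counts in the WT library, are drawn with that 0 set to 3 counts.

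At the class I end of the segment lie the genes of the TNF superfamily and their neighbours. Ltb encodes lymphotoxin beta, the membrane-anchored subunit of the lymphotoxin heterotrimer that signals through the lymphotoxin beta receptor, and Lta encodes lymphotoxin alpha; both are known mainly from lymphocytes. Ltb had 13 counts (1.10 FPKM) in the TKO library and 2 counts (0.17 FPKM) in the WT library. Its ratio was 6.80-fold with a counting interval of 1.54-fold to 62.1-fold, but it lay under the minimum of 20 counts and was not called. Ltb would pass if no count minimum were set, as 2.30% of all genes then do in this direction, or on log2(FPKM + 0.1), as 2.77% do. Lta had 2 counts in TKO and 1 count in WT macrophages, too few for a direction (log2 ratio 1.07, interval -3.20 to 6.95). With so few reads, neither gene was more than marginally detected in either genotype.

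Nfkbil1, which encodes a protein with ankyrin repeats like those of the NF-kappa-B inhibitors, stands next to them. It had 257 counts (16.5 FPKM) in TKO macrophages and 183 counts (11.5 FPKM) in WT macrophages. The log2 ratio of 0.56 (interval 0.28 to 0.84) was the highest of the class III genes with enough counts after Msh5, and lay below 2-fold. GENCODE places 144 bases of Nfkbil1 exons over exons of Atp6v1g2, which is on the other strand, and the labels do not say whether counting used strand. Tnf, between Ltb and Lta, had 123 counts in TKO and 69 in WT macrophages (log2 ratio 0.90, interval 0.46 to 1.35), and Atp6v1g2 had 50 in TKO and 31 in WT macrophages (0.76, interval 0.08 to 1.45). All 5 adjacent genes from Ltb to Atp6v1g2 thus had more counts in the TKO library, and none passed the size rule. Ltb and Lta had too few counts to pass it, and no direction can be read for Lta. Tnf and Atp6v1g2, like this run of genes, were picked out after their values were seen.

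Because Ltb, Tnf and Lta are known targets of NF-kappa-B, the 250 bases upstream of the Ltb start (chr17:35194257-35194506, plus strand) are shown, with capitals for matches on either strand to a kappa-B motif (GGG, any 2 bases, TTTCC) and to a gamma-activated or GAS element (TTC, any 3 bases, GAA).
Ltb: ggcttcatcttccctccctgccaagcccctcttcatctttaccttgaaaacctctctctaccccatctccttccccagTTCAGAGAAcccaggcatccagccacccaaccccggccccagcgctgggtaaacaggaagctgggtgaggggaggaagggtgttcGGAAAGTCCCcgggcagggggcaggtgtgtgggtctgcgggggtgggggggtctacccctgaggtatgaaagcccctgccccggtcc
The kappa-B match begins 87 bases and the GAS match 172 bases upstream of the start. A kappa-B match occurs in 1.41% of all promoters of this length and in 2 of the 28 class III genes with a promoter, Ltb and Ppt2. A GAS match occurs in 7.02% of all promoters and in 4 class III genes (Agpat1, Ddah2, Lta and Ltb). The interferon-stimulated response element (GAAA, any 2 bases, GAAA), held by 2.98% of all promoters, was found only in that of Aif1. The log2 ratios of Ppt2, Agpat1, Ddah2 and Aif1 were -0.13, 0.07, -0.02 and 0.22, each with an interval that included 0. Ltb and Lta, both under 20 counts, had ratios of 2.77 and 1.07. Any link between these letters and the ratios was not tested.

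The receptors and signalling proteins of the lymphotoxin and TNF pathway showed no call in either direction among 15 genes with enough counts, of which 12 had a ratio above 0 (median 0.11). Tnfrsf1b, which encodes TNF receptor 2 and was the most abundant, had 148 FPKM in each library. Tnfsf14, encoding LIGHT, another ligand of the lymphotoxin beta receptor, had the largest ratio at 0.93 (interval 0.03 to 1.88), from 31 counts in TKO and 17 in WT macrophages.

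The leukocyte genes Aif1 and Lst1 lie next to the cytokine genes. Aif1 encodes IBA1, an actin-bundling protein used as a macrophage and microglia marker. It had 244 counts (26.8 FPKM) in TKO macrophages and 220 counts (23.7 FPKM) in WT macrophages, with a log2 ratio of 0.22 (interval -0.05 to 0.48). Lst1, a small transmembrane protein of leukocytes, had 287 counts in TKO and 255 in WT macrophages (0.24, interval -0.01 to 0.49), and its sign turned when the trend with gene length was removed (-0.06). Both intervals included 0, so no difference was detectable at this depth.

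The complement genes of the segment had low counts in both libraries. Cfb, the protease component of the alternative pathway, had 18 counts (0.61 FPKM) in TKO macrophages and 21 counts (0.69 FPKM) in WT macrophages (log2 ratio -0.16, interval -1.15 to 0.82). C2, its counterpart of the classical pathway, had 7 counts in each library. GENCODE places 2246 bases of Cfb exons and 1656 bases of C2 exons over those of the readthrough locus Gm20547 on the same strand. How reads shared with it were counted is not stated, and its part in these low counts was not tested. C4b, which supplies the other part of the classical C3 convertase, had 2.96 counts in TKO and 10.5 in WT macrophages, with an interval of -4.17 to 0.29 for the log2 ratio. C4b has a near-identical neighbour, C4a, and the 2 genes summed to 9 counts in TKO and 14 in WT macrophages (log2 ratio -0.57, interval -1.96 to 0.74). No difference in these genes was detectable at this depth.

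Of 14 genes of a complement list that had enough counts, Cfb included, 1 was higher and 1 was lower. Itgax, the alpha chain of complement receptor 4 (CD11c), was higher with 843 counts in TKO and 342 in WT macrophages (2.58-fold). Serping1, the C1 inhibitor, was lower with 27 counts in TKO and 66 in WT macrophages (2.34-fold lower). C1qb, the most abundant, had 1396 FPKM in each library. C3, the central component, had 458 counts in TKO and 293 in WT macrophages (log2 ratio 0.71); it is named here after its value was seen.

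Several of these genes are inducible by interferon in macrophages, and a list of 20 interferon-stimulated genes outside the segment was therefore set beside them. Of these 20, 19 were higher in TKO macrophages (2.43% over all genes), with a median log2 ratio of 1.92 and summed levels of 1355 FPKM in the TKO library and 393 FPKM in the WT library. Their part in the class III values was not tested. Cfb and C2, at 18 and 7 counts in the TKO library, had ratios with intervals on both sides of 0.

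The transcription, RNA and chromatin genes of the segment were expressed at similar levels in both libraries. Nelfe, the RNA-binding subunit of the negative elongation factor that holds RNA polymerase II near promoters, had 435 counts in TKO and 381 in WT macrophages (log2 ratio 0.26, interval 0.06 to 0.46). Ddx39b, the UAP56 helicase that couples splicing to mRNA export, had 1392 counts (78.2 FPKM) in TKO and 1303 counts (70.5 FPKM) in WT macrophages, with a ratio of 0.16 (interval 0.05 to 0.27). Skiv2l, the helicase of the cytoplasmic SKI complex that feeds RNA to the exosome, had 1020 counts in TKO and 1121 in WT macrophages, a ratio of -0.07. The intervals of Nelfe and Ddx39b lay just above 0, and that of Skiv2l included it. With the length trend removed the intervals of Nelfe and Ddx39b included 0 as well.

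Lsm2, a subunit of the ring that binds U6 RNA and decaying mRNA, had 280 counts in TKO and 299 in WT macrophages (log2 ratio -0.03). Ehmt2, the histone H3 lysine 9 methyltransferase G9a, had 2913 counts (69.2 FPKM) in TKO and 3038 counts (70.5 FPKM) in WT macrophages. At a log2 ratio of 0.00 with an interval of -0.07 to 0.08, Ehmt2 was among the closest to equal of the well-counted class III genes. Prrc2a, a large RNA-binding protein reported to read N6-methyladenosine, had 4656 counts (62.4 FPKM) in TKO and 5692 counts (74.9 FPKM) in WT macrophages. Its ratio of -0.22 (interval -0.28 to -0.17) was 1.17-fold lower in TKO macrophages by count, and became 0.05 with the length trend removed.

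Pbx2, a homeodomain cofactor of HOX proteins, had 824 counts in TKO and 795 in WT macrophages (log2 ratio 0.12), and 227 bases of its exons overlap exons of Gpsm3 on the same strand. Stk19, first described as a serine/threonine kinase, had 129 counts in TKO and 167 in WT macrophages, with a ratio of -0.31 (interval -0.65 to 0.03) that became -0.49 (-0.84 to -0.15) with the length trend removed. A pseudogene copy of Stk19 lies nearby, as does one of Skiv2l. Gpank1, a nuclear protein with ankyrin repeats and a G-patch, had 218 counts in TKO and 193 in WT macrophages (0.24, interval -0.05 to 0.53).

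None of the complexes that these proteins belong to held a gene past the size rule. The median log2 ratios were 0.02 for 11 genes of NELF and pause release, -0.04 for 16 of the SKI complex and exosome, 0.20 for 10 LSM proteins, 0.08 for 13 of the TREX mRNA export complex and -0.05 for 8 histone H3 lysine 9 methyltransferase genes. The largest ratios were -0.74 for Ccnt1, the cyclin of the pause-release kinase, -0.52 for Ttc37, the scaffold of the SKI complex, 0.50 for Lsm10, -0.26 for Thoc3 and -0.32 for Ehmt1, the partner of Ehmt2. Among 7 PBX and MEIS factors the median was 0.12, and Meis1 had the largest ratio at 0.59, with an interval that included 0.

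Protein quality control is served by Bag6, Rnf5, Atf6b and Fkbpl. Atf6b, a membrane-bound transcription factor of the endoplasmic reticulum that is cut and released under stress, had 1133 counts (41.0 FPKM) in TKO macrophages and 857 counts (30.4 FPKM) in WT macrophages. Its log2 ratio of 0.47 (interval 0.34 to 0.60), or 1.38-fold, was the highest after those of Msh5 and Nfkbil1. Subtracting the length trend left it at 0.43. Bag6, the chaperone that holds tail-anchored and mislocalised proteins, had 2518 counts in TKO and 2845 in WT macrophages (-0.11, interval -0.19 to -0.03). The shift of Bag6 was small next to that of Atf6b.

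Rnf5, a ubiquitin ligase of the endoplasmic reticulum membrane, had 625 counts in TKO and 566 in WT macrophages (log2 ratio 0.21, interval 0.04 to 0.38), and its ratio was 0.03 with the length trend removed. The Rnf5 exons overlap those of the unnamed transcript Gm20463 by 366 bases. Fkbpl, an immunophilin-like protein that binds HSP90, had 178 counts in TKO and 181 in WT macrophages (0.04).

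Of 11 genes of the ATF6 branch of the unfolded protein response, Atf6b included, none passed the size rule, 8 had a ratio above 0, and the median was 0.28. With the length trend removed, 11 of 11 had a ratio above 0 and the median was 0.17. Calr, encoding calreticulin, was the most abundant, with 666 FPKM in TKO and 518 FPKM in WT macrophages (log2 ratio 0.40), and Hspa5, encoding BiP, had 385 FPKM in TKO and 296 FPKM in WT macrophages (0.42). The paralogue Atf6 had a ratio of the other sign, with 1361 counts in TKO and 1733 in WT macrophages (-0.28, interval -0.39 to -0.18), and its ratio became 0.02 with the length trend removed. Hspa5 and Atf6 were named after their values were seen. Among 8 genes of tail-anchored protein insertion (median 0.02), Asna1, the targeting ATPase also called GET3, had the largest ratio at 0.56, with 1414 counts in TKO and 1002 in WT macrophages. Among 13 genes of endoplasmic reticulum degradation the median was 0.07; Sel1l had the largest ratio, -0.26, and Vcp was the most abundant at 165 FPKM in TKO and 176 FPKM in WT macrophages.

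Neu1, the lysosomal sialidase, had 1254 counts (30.3 FPKM) in TKO macrophages and 1044 counts (24.8 FPKM) in WT macrophages. Its log2 ratio was 0.33 (interval 0.21 to 0.45) and 0.39 with the length trend removed, so that it stayed below 2-fold either way. Ppt2, a lysosomal thioesterase, had 631 counts in TKO and 724 in WT macrophages (-0.13, interval -0.29 to 0.02), and 957 bases of its exons overlap those of the readthrough locus Gm20460. Ctsa, the protective protein cathepsin A that NEU1 needs for stability, was the most abundant, with 603 FPKM in TKO and 472 FPKM in WT macrophages (0.39). The median of the 7 sialidase and thioesterase genes with enough counts was 0.21, none passed the size rule, and Neu3, a membrane sialidase, had the largest ratio at 0.61 (interval -0.02 to 1.26).

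The lipid enzymes differed little. Agpat1, which makes phosphatidic acid from lysophosphatidic acid, had 756 counts in TKO and 753 in WT macrophages (log2 ratio 0.07, interval -0.08 to 0.22). Abhd16a, a phosphatidylserine lipase, had 435 counts in TKO and 416 in WT macrophages (0.13). Of 11 enzymes of phosphatidic acid and lysophospholipid metabolism (median 0.01), none passed the size rule. The widest ratios of that list were 0.91 for Agpat9, from 43 counts in TKO and 24 in WT macrophages, and -0.87 for the phosphatidic acid phosphatase Lpin2, from 857 in TKO and 1642 in WT macrophages. Lpin2 was named after its value was seen. Ddah2, annotated as an enzyme that clears the nitric oxide synthase inhibitor dimethylarginine, had 31 counts in TKO and 33 in WT macrophages (-0.02). In its list, Ass1, the argininosuccinate synthase that regenerates arginine, was higher with 712 counts in TKO and 231 in WT macrophages (3.23-fold).

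The most abundant class III genes encode signalling and membrane proteins. Clic1, a chloride intracellular channel protein of the redox-sensitive glutathione transferase fold, had 5780 counts (475 FPKM) in TKO macrophages and 5145 counts (414 FPKM) in WT macrophages, at rank 147 of the table in TKO and rank 152 in WT macrophages. Its log2 ratio was 0.23 (interval 0.18 to 0.29), and 0.06 with the length trend removed. Gpsm3, a regulator of heterotrimeric G proteins in leukocytes, had 1982 counts (138 FPKM) in TKO and 1672 counts (114 FPKM) in WT macrophages, a ratio of 0.31 (interval 0.22 to 0.41). Both were above WT by more than counting error and well under 2-fold.

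Csnk2b, the regulatory subunit of the kinase CK2, had 1301 counts (128 FPKM) in TKO and 1223 counts (118 FPKM) in WT macrophages, with a log2 ratio of 0.15 (interval 0.04 to 0.27) that turned to -0.04 with the length trend removed. The catalytic subunits had ratios of 0.14 (Csnk2a2) and -0.07 (Csnk2a1), so the kinase genes lay close together. Clic4, the relative of Clic1, had 3945 counts in TKO and 4393 in WT macrophages (-0.09).

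Notch4, a Notch receptor known mainly from endothelium, had 82 counts (1.15 FPKM) in TKO macrophages and 126 counts (1.73 FPKM) in WT macrophages. Its log2 ratio of -0.55 (interval -0.97 to -0.14), 1.47-fold lower, was the lowest of the class III genes with enough counts. With the length trend removed it was -0.30, with an interval of -0.72 to 0.11. Of 16 Notch pathway genes with enough counts, none passed the size rule, 14 had a ratio below 0, and the median was -0.26. The count below 0 was also 14 with the length trend removed, with a median of -0.14. Notch1, the paralogue, had 723 counts in TKO and 1269 in WT macrophages (-0.75, interval -0.88 to -0.61), which became -0.36 with the length trend removed. Rbpj, the DNA-binding partner of all Notch receptors, had a ratio of -0.51 and was named after its value was seen. Adam10, the protease that cleaves the receptors, was the most abundant of the list at 104 FPKM in TKO and 122 FPKM in WT macrophages.

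The 6 endothelial markers summed to 22.3 FPKM in the TKO library and 14.5 FPKM in the WT library, with Kdr higher among 4 with enough counts and Cldn5 at 0 in the WT library. The 10 fibroblast markers summed to 35 FPKM in the TKO library and 118 FPKM in the WT library, with 6 of 9 lower in TKO macrophages. Their part in the values of Notch4 and of the matrix gene Tnxb was not tested.

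Ager, the receptor for advanced glycation end products, had 13 counts in each library (0.83 FPKM in TKO, 0.79 FPKM in WT macrophages). The RAGE ligands and partners with enough counts numbered 8, with a median of 0.21. S100a4 was the most abundant, at 2095 FPKM in TKO and 1721 FPKM in WT macrophages, and S100a8 was the only call, higher with 21 counts in TKO and 9 in WT macrophages. S100a8 is also a neutrophil marker. The 7 neutrophil markers in the table summed to 9.20 FPKM in the TKO library and 6.22 FPKM in the WT library, with Mmp9 lower, Retnlg and Camp at 0 in the TKO library and Elane at 0 in the WT library.

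The remaining class III genes were at the edge of detection. Prrt1, a membrane protein studied at synapses, had 23 counts in TKO and 24 in WT macrophages (log2 ratio 0.00). Egfl8, a secreted protein with EGF-like domains, had 13 counts in TKO and 12 in WT macrophages. Its exons overlap those of the readthrough locus Gm20460 by 615 bases and those of Agpat1 by 101 bases. Tnxb, the matrix glycoprotein tenascin X, had 2 counts in TKO and 3 in WT macrophages, and Apom had 1 count in TKO and 2 in WT macrophages. No direction can be read from any of these 4 genes. Together with Ager, C2, C4b, Ltb and Lta, the last 3 make up the 8 class III genes under 20 counts in both libraries.

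Over all 19 lists of partner genes, 164 genes outside the class III list had enough counts. Of these, 3 were higher (Itgax, S100a8 and Ass1) and 1 was lower (Serping1), beside 2.43% higher and 2.30% lower over all genes.

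**Figure D4:**
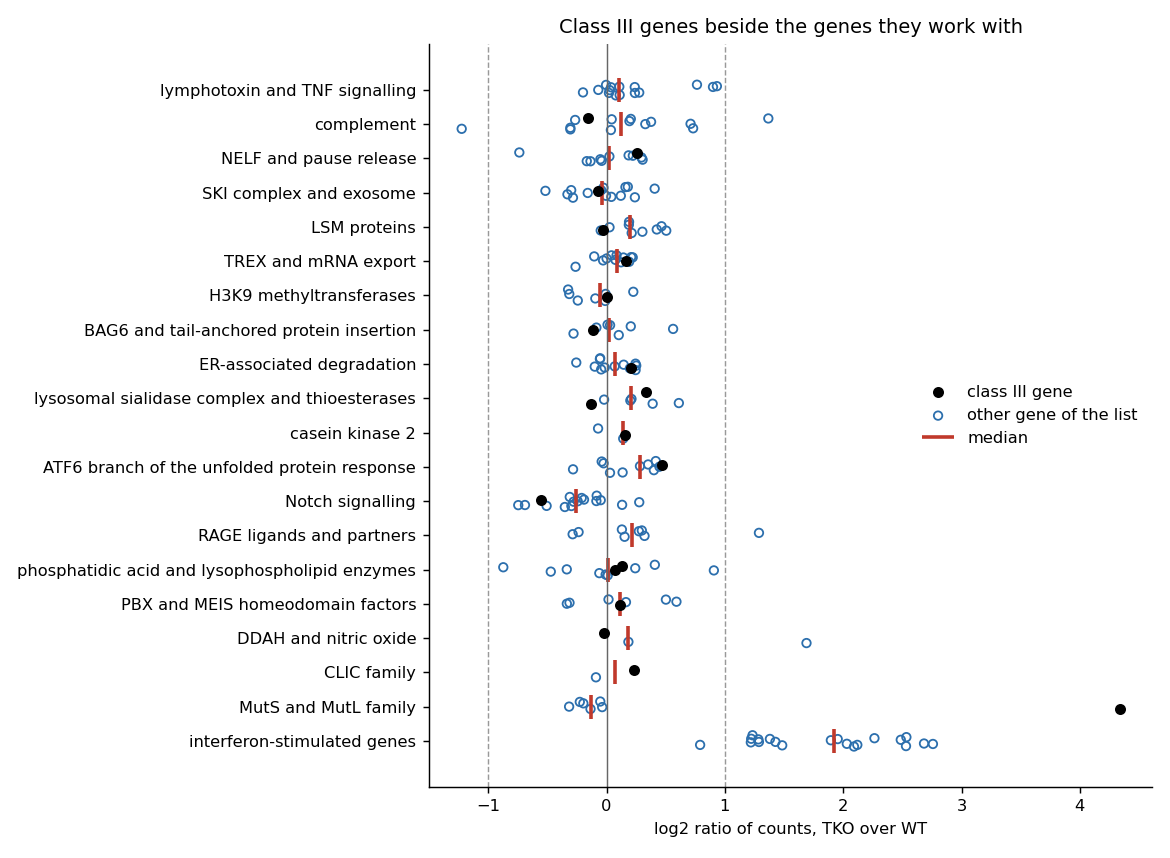
Log2 ratio of TKO over WT for the genes of each partner list with at least 20 counts in 1 library (open circles), with the class III genes of the list as filled circles and a red bar at the list median; dashed lines mark 2-fold, and the bottom row holds the interferon-stimulated genes. Partner list medians lie between -0.26 (Notch signalling) and 0.28 (ATF6 branch), and Msh5 is the only class III gene beyond the lines.

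Ltb and Lta are known as lymphocyte genes, and the markers of other cell types were examined as lists. The B cell markers summed to 1.92 FPKM in the TKO library and 2.62 FPKM in the WT library over 6 genes; Ebf1 was lower, Pax5 was at 0 in the TKO library, and Ms4a1 was at 0 in the WT library. The 5 T and NK cell markers in the table summed to 64.6 FPKM in the TKO library and 62.7 FPKM in the WT library, with Cd4 lower and Ncr1 at 0 in the WT library. Only 2 of these 5 had enough counts, at log2 ratios of -1.29 (Cd4) and 0.09, so nearly all counts of the list came from 2 genes. Cd3e, Cd3g and Nkg7 were also listed but were absent from the deposited genes. Of 10 dendritic cell markers, with a sum of 122 FPKM in the TKO library and 99.4 FPKM in the WT library, 4 were higher (Dpp4, Flt3, Itgax and Cd24a) of 6 with enough counts. The 2 mast cell markers in the table summed to 0.15 FPKM in the TKO library and 0.43 FPKM in the WT library. The part of these cells in the class III values was not tested.

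The log2 ratio fell with gene length over the whole table, with a Spearman correlation of -0.45 across 11525 genes, which are not independent replicates and come from the same 2 libraries. Across the 28 class III genes it was -0.21. The class III genes are short, with a median length of 1573 bases among those with enough counts, compared with 2859 bases for all genes. When a smooth trend with length was subtracted, 7 class III genes moved outside their own counting interval: Gpsm3 (0.16), Lst1 (-0.06), Clic1 (0.06), Rnf5 (0.03), Ddx39b (0.04), Csnk2b (-0.04) and Prrc2a (0.05). Of these, Lst1, Csnk2b and Prrc2a turned sign. The median over the 28 genes became 0.02.

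After this correction 6 class III genes had intervals above 0 (Msh5, Atf6b, Nfkbil1, Neu1, Gpsm3 and Clic1) and 2 below 0 (Stk19 and Ppt2). These 8 are 28.6% of the 28, and the share over all genes was 36.7%. Msh5 kept a log2 ratio of 4.31. What ties the ratio to gene length was not tested.

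**Figure D5:**
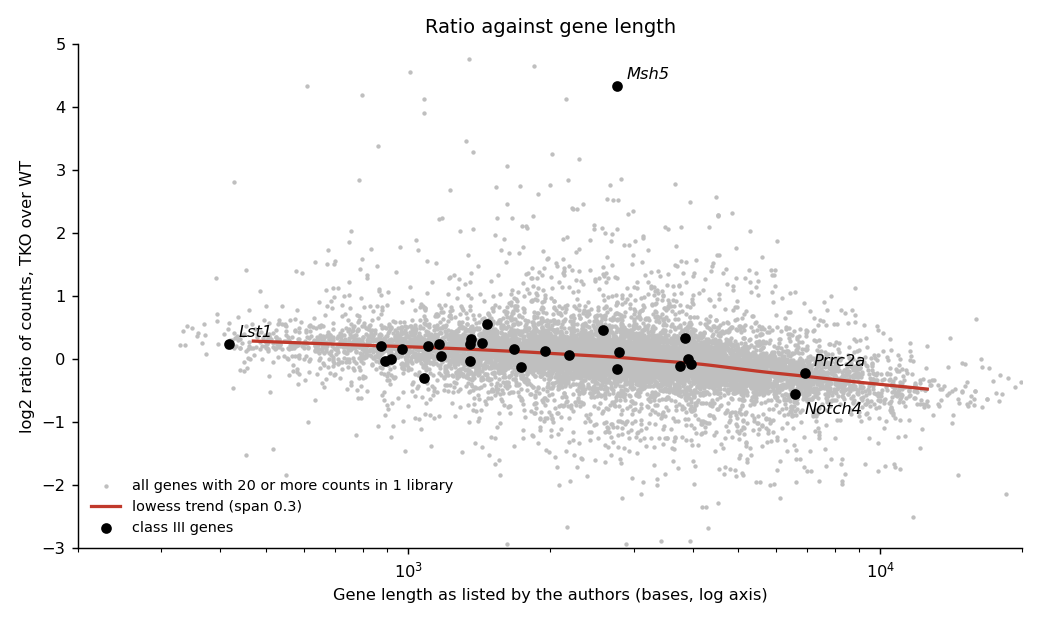
Log2 ratio of TKO over WT against gene length in bases (log axis) for all genes with at least 20 counts in 1 library (grey), the lowess trend over them (red line) and the 28 class III genes (black). The trend slopes downward, most class III genes are shorter than the overall median of 2859 bases, and Msh5 lies far above the trend; 28 genes lie outside the axes.

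Shared sequence limits the reading of part of the list. Exons of 14 of the 36 class III genes overlap exons of another GENCODE gene on either strand, and 16 overlap another gene or have a near-identical copy. The 20 others include 16 with enough counts. Their median log2 ratio was 0.09, and Msh5 was again the only call. The authors' deposited table gave an FDR of at most 0.05, a threshold chosen here, for 10 of the 36 genes, or 27.8%, and for 26.4% of all genes.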

How the data were processed

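RNA of 1 TKO and 1 WT macrophage library was measured after enrichment for polyadenylated molecules. The deposited file, 1 table of 16463 genes, names its columns by genotype at 0 h, and these were matched to the unstimulated samples; 0 columns of per-sample values had no match. The submitters' processing notes name HISAT2 2.0.4, Bowtie2 2.2.5, RSEM 1.2.12 and mm10 without saying what each did. Annotation, filters and strand setting are not stated there. Expected counts, as deposited, are estimates of the reads of each gene. FPKM values, named as such per the file headers, stand at 0.01 where the count is 0. The log2 ratio in the authors' table equals that of their FPKM values. Which test gave the authors' p-value is not stated, and the deposited FDR was taken as a score, since 713 of its values are above 1. A gene length was deposited as well.

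For the ratios, the counts were made whole by rounding and then scaled by TMM (edgeR 4.0.16, R 4.3.3; factor 0.988 for TKO, 1.01 for WT). No pseudocount was used, a 0 was set to 3 counts, and 95% intervals were exact conditional binomial (Clopper-Pearson) ones. Because the reads carry no molecular identifiers and are not independent, these intervals and the floor describe counting error alone. A p-value was not computed, as each genotype had 1 library. The size rule (2-fold, interval clear of 0, 20 counts in either library) was tested on simulated data. These held counting error alone, as the intervals assume, so they cannot show how the rule fares with variation between mice or libraries.

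Positions and promoters were those of RefSeq (GRCm38.p6), and exon overlaps those of GENCODE M21. The class III list, 19 partner lists, 4 lists of neighbouring and interferon-stimulated genes and 8 marker lists were chosen with earlier results of these data known. Named were all class III genes, the partner genes past the size rule (in a list without any, the largest ratio and the most abundant gene), the nearest tested genes beside the segment and the markers past the rule. A few genes chosen in this way are not reported here. Alternatives were library totals, DESeq2 1.42.0 size factors, log2(FPKM + 1) and log2(FPKM + 0.1) for genes with an FPKM of 1 or more, no count minimum or 100 counts, 1.5-fold and 4-fold thresholds, subtraction of a lowess trend with length (span 0.3), and leaving out overlapping or copied genes.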

Additional observations from a re-analysis of the deposited data

How the results depend on the processing

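Msh5 passed the size rule under every alternative run, with its log2 ratio lowest, at 2.16, under log2(FPKM + 1). With log2(FPKM + 0.1) and with no count minimum, 2 class III genes passed, since Ltb joined Msh5. The class III median stayed above 0 under all alternatives, between 0.02 with the length trend removed and 0.15 with 100 counts. Over all genes, 545 passed, but 335 with log2(FPKM + 1), 259 with 100 counts, 1227 at 1.5-fold and 102 at 4-fold. In the partner lists 4 passed, but 2 with log2(FPKM + 1), 2 with 100 counts, 13 at 1.5-fold and 0 at 4-fold. Outside the class III list, 20 genes in the segment or within 1 Mb of it passed, but 32 at 1.5-fold and 13 at 4-fold. Of those among them that lie inside the segment 0 passed, but 2 with log2(FPKM + 1), 2 with log2(FPKM + 0.1) and 3 at 1.5-fold. Removing the length trend moved 7 class III genes beyond their counting interval, 3 of them across 0; the cause was not tested. Leaving out a replicate was not possible with 1 library per genotype. No paired analysis was possible because each genotype had 1 library. Below 20 counts the counting intervals are wide, and the main size rule made no call there. The 2 FPKM alternatives used neither the count minimum nor the interval, so genes with few counts could pass them.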
